A study of Mus musculus with 2 samples.

Results

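The genes described here are 49 regulators of pre-mRNA splicing, chosen by name from 43629 gene rows: 10 SR proteins, 7 SR-related proteins, 13 hnRNP proteins, 3 PTB proteins, 9 regulators of the RBFOX, MBNL, CELF, STAR and NOVA families, 3 further RNA-binding proteins (2 RBM proteins and TDP-43), and 4 proteins that recognise the branch point and 3′ splice site. They were measured in polyadenylated RNA of mouse embryonic stem (ES) cells, which derive from the blastocyst. Both libraries, replicates A and B, carry a Dgcr8 knockout made with paired CRISPR/Cas9 cuts on a 129/Ola background and were taken at passage 7. Dgcr8 is the RNA-binding partner of Drosha in the complex that starts microRNA maturation. The labels add the codes KO2 and d5 without explaining them and state neither separate cultures nor separate clones for A and B, so p-values measure only differences between these libraries, which may be technical. The 2 libraries form 1 group, with no wild type analysed here, and the values are therefore levels in knockout cells and differences between replicates.

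Introns are removed by the spliceosome, and regulators bound to exons and introns decide which splice sites it uses. SR proteins carry arginine- and serine-rich domains and mostly bind exonic enhancers, where they favour inclusion of an exon. The hnRNP and PTB proteins often act as repressors, while RBFOX, MBNL, CELF, STAR and NOVA proteins promote or block an exon depending on where they bind. Many of these genes limit their own product: the protein drives inclusion of an exon with an early stop codon, or skipping of an exon whose loss shifts the frame, and the transcript is removed by nonsense-mediated decay (NMD). ES cells are known to depend on several of these factors, and the switch in exon choice during differentiation involves the MBNL and PTB families in particular.

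Replicate A was sequenced to 27872396 counts and replicate B to 30327146. Levels are given as CPM, counts per 1000000 counts of the library, or as RPKM, CPM per 1000 bases of the gene's longest transcript, and only RPKM is used to compare genes. Of the ES cell markers, all 5 were abundant, with Pou5f1 at 1805 CPM in A and 1542 CPM in B. Summed fibroblast markers (6 genes) were at 47.9 CPM in A and 30.1 CPM in B, neural markers (6 genes) at 87.7 and 53.6 CPM, and endoderm markers (5 genes) at 3.19 and 20.1 CPM. The neural sum was mostly Tubb3, at 74.7 CPM in A and 45.4 CPM in B, while Neurog2 stood at 0 counts in A and 1 count in B. The endoderm sum in B was mostly Cubn, at 1.51 CPM in A and 14.3 CPM in B. The part of other cell types in the levels below was not tested, and in bulk RNA fewer cells of a type and less RNA per cell cannot be told apart. Dgcr8 itself had 44.96 CPM in A and 64.0 CPM in B. Counts over a whole gene do not check a deletion within it.

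All 49 regulators had a row and reached 1 CPM in both libraries, a level that 13372 genes reached. They held 396640 counts in A, 1.42% of the library (exact binomial 95% limits 1.42% and 1.43%), and 518352 counts in B, 1.71% (1.70% and 1.71%). Their median level was 57.5 RPKM in A and 69.2 RPKM in B, and 69.4 RPKM over the genes' means. The 13320 of these genes with a known transcript length had a median of 8.64 RPKM. Of the 49 regulators, 41 lay above that median and 12, or 24.5%, were among the top 5% of these genes, above 114 RPKM. With the longest transcript as length, the means ran from 0.295 RPKM for Srrm4 to 398 RPKM for Hnrnpab, a 1351-fold range. The order of the genes by RPKM was similar in both libraries, with a Spearman rank correlation of 0.97 across the 49 genes, which share libraries and are not independent replicates.

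**Figure D1:**
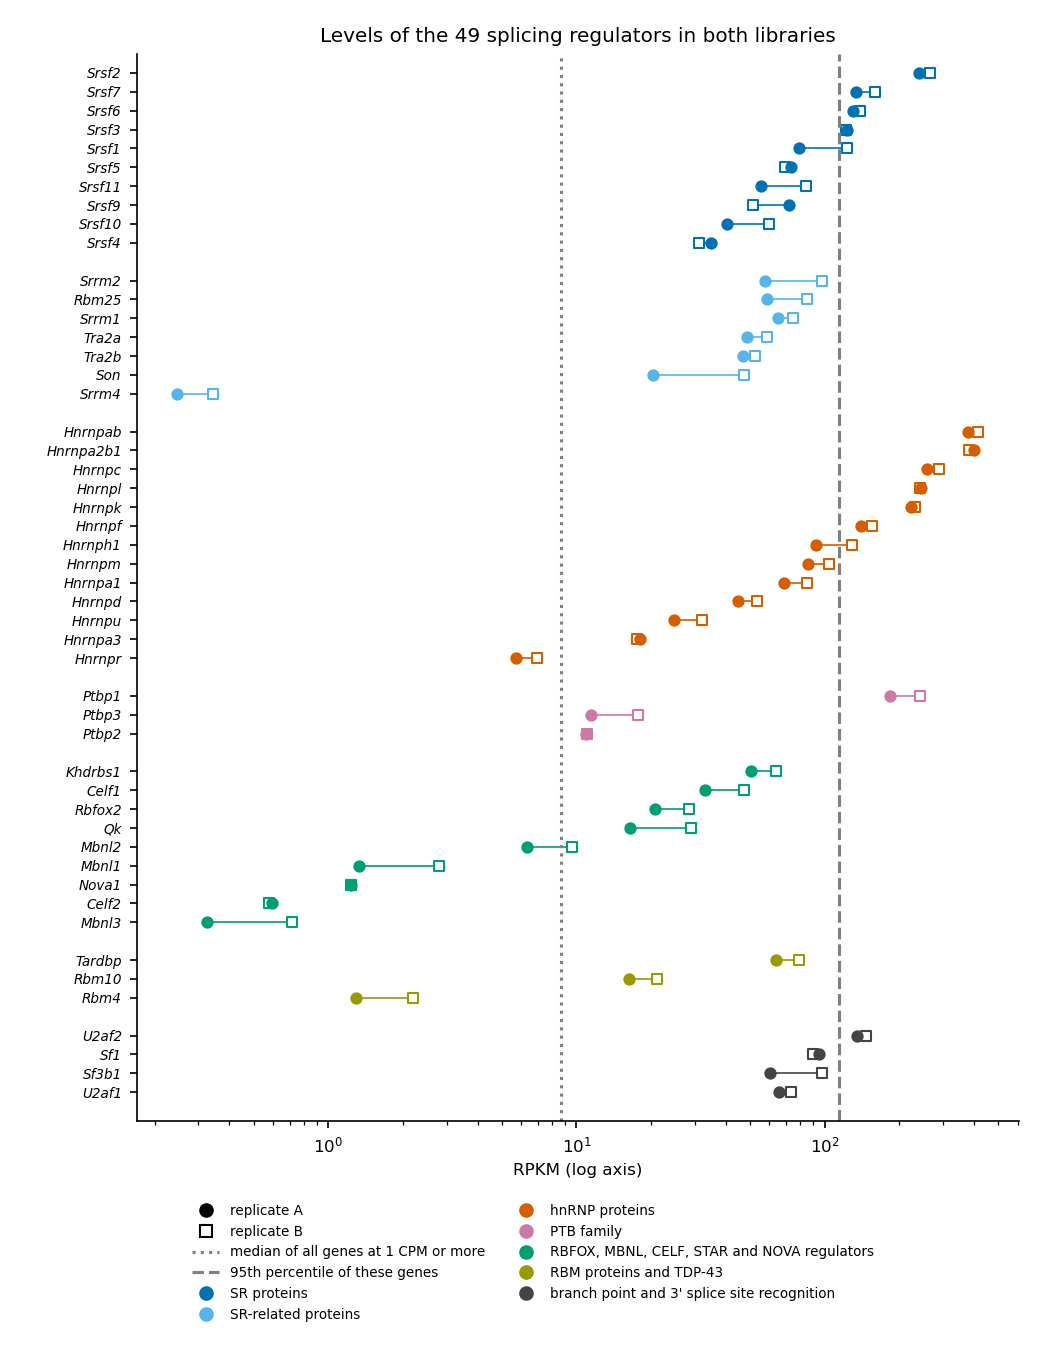
Level of each of the 49 regulators in RPKM (log axis), grouped by family, with a filled circle for replicate A and an open square for replicate B. The dotted line marks the median of the 13320 genes of known length that reached 1 CPM in A and B (8.64 RPKM) and the dashed line their 95th percentile (114 RPKM). Of the 8 regulators with a mean under 10 RPKM, 5 belong to the RBFOX, MBNL, CELF, STAR and NOVA group.

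The SR proteins were abundant throughout, with a family median of 86.3 RPKM, and all 10 lay above the median of all genes. Srsf2, which binds exonic enhancers and is itself a target of nonsense-mediated control, was the most abundant at 239 RPKM in A and 267 RPKM in B (253 ± 19.6, SD, n = 2). Srsf7, which also serves in mRNA export, had 133 RPKM in A and 160.2 RPKM in B. Srsf6 had 131 RPKM in A and 139 RPKM in B. The libraries lay close together for Srsf2 and Srsf6 and somewhat apart for Srsf7. Srsf1, the founding SR protein, had 79.3 RPKM in A and 124 RPKM in B. Srsf3, the smallest of the classical SR proteins, had 123 RPKM in A and 122 RPKM in B. At the low end stood Srsf4, with 34.7 RPKM in A and 31.3 RPKM in B, and Srsf10, with 40.5 RPKM in A and 59.9 RPKM in B. Srsf10 is the SR protein known for acting as a repressor once dephosphorylated. Srsf5, Srsf9 and Srsf11 had means between 61.5 and 71.1 RPKM. This order depended on the length. With the longest coding transcripts Srsf3 had 188 RPKM in A and 187 RPKM in B, above Srsf7 and Srsf6 in both. Srsf5 then had 162 and 154 RPKM. With the union of exons Srsf11 had 20.4 RPKM in A and 31.1 RPKM in B. Srsf10 then had 21.7 and 32.1 RPKM, and Srsf4 30.2 and 27.2 RPKM. Counts at near-identical pseudogenes, if added, would raise Srsf3 to 148 RPKM in A and 156 RPKM in B with the longest transcript. Of the exon bases of Srsf4, 43.0% overlap Gm12992 on the opposite strand, and 25.3% of those of Srsf2 overlap Mettl23 and Mfsd11, so reads of these genes may be shared if the counting did not use strand.

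Of the SR-related genes, Srrm2, a scaffold of nuclear speckles, had the highest mean, at 57.5 RPKM in A and 97.4 RPKM in B. Rbm25, which acts with the U1 particle, had 58.7 RPKM in A and 85.0 RPKM in B. Srrm1, a coactivator that bridges SR proteins and the spliceosome, had 65.1 RPKM in A and 74.6 RPKM in B. All 3 were lower in A. That Srrm2 led depended on the length: with the longest coding transcripts Tra2a had 103 RPKM in A and 123 RPKM in B. Srrm2 then had 57.5 and 97.4 RPKM. Tra2a and Tra2b, enhancer-binding proteins related to fly Transformer-2, stood at like levels: Tra2a had 48.7 RPKM in A and 58.6 RPKM in B, and Tra2b had 47.0 RPKM in A and 52.4 RPKM in B. The ratio of Tra2a over Tra2b was 1.04 in A and 1.12 in B, but 1.81 and 1.95 when lengths were those of the longest coding transcripts. By counts at the genes themselves, Tra2a was the higher with either length, by a margin that moved with the choice. Tra2b has near-identical pseudogenes and Tra2a has none. With their counts added and the longest transcript as length, Tra2b had 53.8 RPKM in A and 66.15 RPKM in B, above Tra2a in both. The order of Tra2a and Tra2b thus depends on these choices. Son, another speckle protein, had 20.4 RPKM in A and 47.5 RPKM in B, the widest ratio between libraries among the 49 genes. Srrm4, which drives inclusion of neural microexons, had the lowest mean, resting on 51 counts in A and 78 in B, or 1.83 CPM (exact Poisson 95% limits 1.36 and 2.41) and 2.57 CPM (2.03 and 3.21).

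In the GENCODE M21 annotation, 9 of 10 SR genes and 7 of 7 SR-related genes had a transcript of the NMD class. Gene counts do not tell which transcript was present. A few of the annotated exons with an early stop are shown, because they are the elements through which these genes are known to limit themselves. Each is printed from its first base to the stop codon, which is in capitals, on the coding strand (GRCm38).

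Srsf3 exon, chr17:29039454-29039909, + strand, 34 of 456 bases: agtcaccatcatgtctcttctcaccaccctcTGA
Srsf7 exon, chr17:80204622-80205081, − strand, 28 of 460 bases: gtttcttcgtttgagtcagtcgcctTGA
Tra2a exon, chr6:49252803-49253108, − strand, 144 of 306 bases: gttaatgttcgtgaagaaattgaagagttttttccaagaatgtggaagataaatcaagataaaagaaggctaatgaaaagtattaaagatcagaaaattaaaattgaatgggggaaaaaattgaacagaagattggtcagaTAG
Tra2b exon, chr16:22258865-22259261, − strand, 81 of 397 bases: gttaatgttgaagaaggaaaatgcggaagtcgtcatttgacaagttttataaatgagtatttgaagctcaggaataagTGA

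The Srsf3 and Srsf7 exons reach a stop within 34 and 28 bases. The Tra2a and Tra2b exons, on chromosomes 6 and 16, begin with the same 9 bases and differ in the stop codon that ends their reading frame. Over all 49 genes, 17 such exons in 14 genes, of 56 to 460 bases, were annotated as present in an NMD transcript and absent from a coding one. Overlapping forms of the Tra2b exon are counted apart. The opposite arrangement, a coding exon that an NMD transcript skips, was counted only for short exons within the coding sequence whose loss shifts the frame. It was annotated for 10 such exons in 9 genes, of 34 to 187 bases.

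The hnRNP proteins included the most abundant transcripts, with a family median of 110.3 RPKM and 6 of 13 in the top 5% of genes. Hnrnpab had 379 RPKM in A and 417 RPKM in B (398 ± 26.8, SD, n = 2). Hnrnpa2b1, which binds and sorts many mRNAs, had 401 RPKM in A and 384 RPKM in B (393 ± 12.4, SD, n = 2). These means differed by less than the spread between libraries, and which was higher changed between A and B. Both points held only with the longest transcript as length. With coding transcripts Hnrnpa2b1 had 847 RPKM in A and 809 RPKM in B, against 379 and 417 RPKM for Hnrnpab. With the union of exons Hnrnpab was the higher, at 323 and 355 RPKM against 222 and 212 RPKM. Hnrnpc, which binds uridine tracts and masks cryptic exons, had 259 RPKM in A and 289 RPKM in B. Hnrnpl and Hnrnpk, binders of CA-rich and C-rich RNA, had means of 244 and 227 RPKM. The highest mean of the remaining 8 hnRNP genes was 148 RPKM, for Hnrnpf. The order around Hnrnpl and Hnrnpk depended on the length: with coding transcripts Hnrnph1 had 242 RPKM in B, against 231 RPKM for Hnrnpk. The lowest were Hnrnpa3, with 18.0 RPKM in A and 17.6 RPKM in B, and Hnrnpr, with 5.70 RPKM in A and 6.92 RPKM in B. Hnrnpr has a longest transcript of 21452 bases, which lowers its RPKM: in CPM, it had 122 in A and 149 in B. In Hnrnpab, 29.1% of exon bases overlap Phykpl on the opposite strand, and in Hnrnpm 14.7% overlap March2 on the same strand. In Hnrnpf, 13.5% overlap 4933440N22Rik on the opposite strand.

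The level of Hnrnpa1, the best-known hnRNP repressor, is uncertain because annotated pseudogenes hold near-identical sequence and counts of their own. Hnrnpa1 (chr15:103240432-103246692) had 5962 counts in A and 8001 in B, or 214 and 264 CPM. Its 6 annotated pseudogenes that match at 95% identity or more over at least 200 bases held 9056 counts in A and 16390 in B, which is 152% and 205% of the counts at the gene. Most lay at Gm10052 (chr9:123689233-123690192), with 8487 counts in A and 15515 in B. All 960 coding bases of Hnrnpa1 have the same letters there. U2af1 had 1911 counts in A and 2321 in B, against 3592 in A and 3582 in B at its processed pseudogene Gm10232 (chr17:3044014-3044733), which differs at 2 of 717 coding bases. Hnrnpk had 18525 counts in A and 20800 in B, and Gm7964 (chr7:83755904-83757281) had 8264 in A and 13695 in B, with 10 differences and 1 gap over 1377 aligned bases. Windows of 60 coding bases show how little separates the reads of these loci, with differing bases in capitals.

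Hnrnpa1, bases 1 to 60: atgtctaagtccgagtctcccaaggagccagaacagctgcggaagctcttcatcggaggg
Gm10052: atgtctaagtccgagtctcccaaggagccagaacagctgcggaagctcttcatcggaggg
U2af1, bases 90 to 149: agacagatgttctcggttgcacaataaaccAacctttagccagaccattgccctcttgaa
Gm10232: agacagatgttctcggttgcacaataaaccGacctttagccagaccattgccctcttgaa
Hnrnpk, bases 539 to 598: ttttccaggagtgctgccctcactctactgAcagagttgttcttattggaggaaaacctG
Gm7964: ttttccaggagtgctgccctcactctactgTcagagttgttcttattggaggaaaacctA

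The first window holds no difference, the second 1 and the third 2, so a read inside the first window cannot be placed by its letters. Of the 49 genes, 14 had such a pseudogene. Adding pseudogene counts would raise Hnrnpa1 to 539 CPM in A and 804 CPM in B, U2af1 to 197 and 195 CPM, and Hnrnpk to 961 and 1137 CPM. For 2 of the 14, Hnrnpa1 and U2af1, the gene itself had fewer counts than its pseudogenes in A and in B. At Rbm10, the X-linked regulator of exon skipping, they held 60.6% of the gene's counts in A and 44.05% in B. For the remaining 10 genes, Hnrnpk left out, this share lay between 0.331% and 32.7% in A and between 0.160% and 33.5% in B. How the counting treated reads that match several places is not given in the sources used here.

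**Figure D2:**
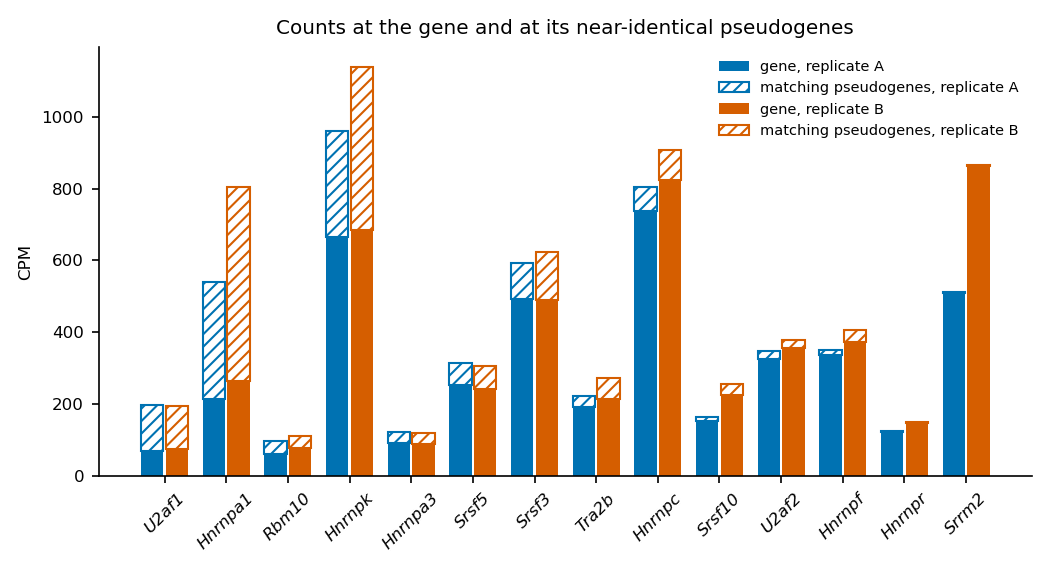
CPM of the 14 regulators with near-identical pseudogenes, ordered by the relative size of the pseudogene counts in A. Solid bars are counts at the gene and hatched bars counts at its pseudogenes, with replicate A left of replicate B. In Hnrnpa1 and U2af1 the hatched part exceeds the solid part in both libraries.

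Within the PTB family, pyrimidine-tract binding repressors that replace one another between cell types, Ptbp1 held most of the RNA. Ptbp1 had 184 RPKM in A and 242 RPKM in B (213 ± 41.0, SD, n = 2). Of its exon bases, 20.7% overlap E130317F20Rik, Gm17134 and Plppr3 on the opposite strand. Ptbp2, the form known from neurons, had 10.9 RPKM in A and 11.0 RPKM in B, and Ptbp3 had 11.5 RPKM in A and 17.6 RPKM in B. Ptbp1 therefore made up 89.2% of the family's summed RPKM in A and 89.4% in B. The ratio of Ptbp1 over Ptbp2 was 16.9 in A and 22.0 in B, and that of Ptbp1 over Ptbp3 was 16.05 in A and 13.7 in B. Ptbp3 and Ptbp2 stood at a ratio of 1.05 in A and 1.60 in B, and this ratio depended on the length used: in A it was 0.98 with coding transcripts and 2.19 with the union of exons. The union of exons also gave larger ratios of Ptbp1 over Ptbp2, at 25.6 in A and 33.3 in B.

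PTBP1 is known to cause skipping of a short exon in its own transcript and in that of Ptbp2, and both skipped forms are annotated as NMD transcripts. The exons are shown because they are the known link between these genes. Both are 34 bases long, which is no multiple of a codon, and 26 of the 34 bases are the same (76.5%). Capitals mark the bases that differ.

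Ptbp1, chr10:79862014-79862047, + strand: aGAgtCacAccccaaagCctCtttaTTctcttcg
Ptbp2, chr3:119724612-119724645, − strand: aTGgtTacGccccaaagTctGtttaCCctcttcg

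Use of these exons cannot be read from gene counts. What the counts show is the gene total, in which Ptbp2 lies at the 55.6th percentile of genes by RPKM and Ptbp1 at the 97.4th.

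The remaining cell-type-associated regulators formed the family of lowest median, at 7.95 RPKM (3.69 RPKM with the union of exons as length), and 4 of 9 lay above the median of all genes. Khdrbs1, the STAR protein Sam68, had 50.4 RPKM in A and 63.6 RPKM in B. Celf1, which binds GU-rich RNA, had 32.9 RPKM in A and 47.6 RPKM in B. Rbfox2, which binds GCAUG, had 20.7 RPKM in A and 28.3 RPKM in B. Each of these was lower in A. Qk, the STAR protein quaking, had a mean of 22.7 RPKM. Celf2 had 146 counts in A and 155 in B, or 0.591 and 0.577 RPKM, so Celf1 was 55.5-fold above it in A and 82.4-fold in B. With the union of exons as length these ratios were 151 and 224.

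The MBNL genes, whose proteins repress the exon pattern of ES cells, were low. Mbnl2 had 6.33 RPKM in A and 9.57 RPKM in B. Mbnl1 had 1.33 RPKM in A and 2.79 RPKM in B, and Mbnl3 had 0.324 RPKM in A and 0.716 RPKM in B. The order Mbnl2, Mbnl1, Mbnl3 held in both libraries, with Mbnl2 4.77-fold above Mbnl1 in A and 3.43-fold in B, and Mbnl1 4.09-fold above Mbnl3 in A and 3.89-fold in B. With the union of exons as length the order was the same, at 7.33 and 5.27 for Mbnl2 over Mbnl1 and 2.32 and 2.21 for Mbnl1 over Mbnl3. Mbnl3 rested on 42 counts in A and 101 in B, or 1.51 CPM (exact Poisson 95% limits 1.09 and 2.04) and 3.33 CPM (2.71 and 4.05). Nova1, a neuronal regulator that binds YCAY sites, had 247 counts in A and 267 in B, 1.24 and 1.23 RPKM.

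**Figure D3:**
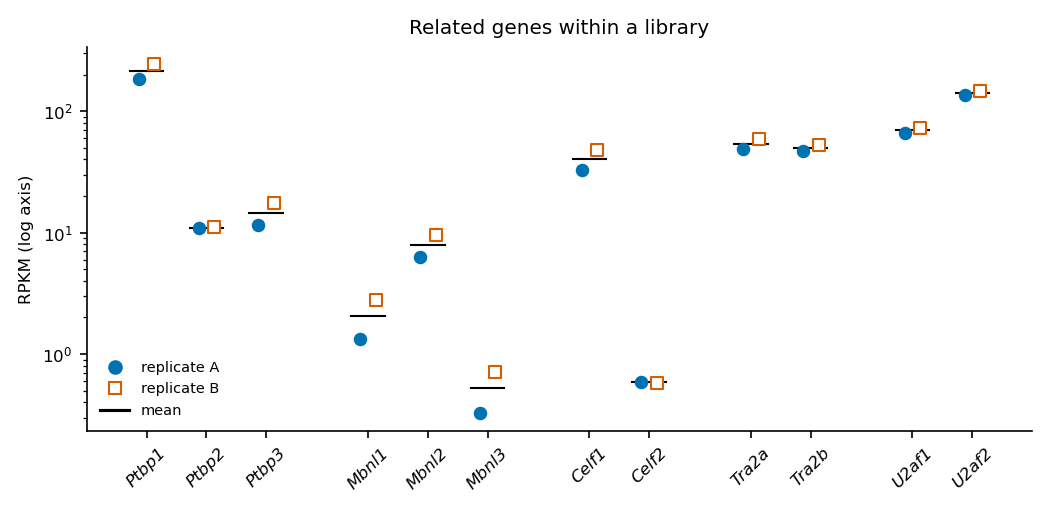
RPKM (log axis) of related genes, with a filled circle for replicate A, an open square for replicate B and a bar for their mean. Ptbp1, Mbnl2 and Celf1 lie above their relatives in both libraries, and Tra2a and Tra2b lie side by side. U2af2 lies above U2af1 only while pseudogene counts are left out.

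Tardbp, which encodes TDP-43, a repressor of cryptic exons, had 63.8 RPKM in A and 78.8 RPKM in B. Masp2 on the opposite strand overlaps 23.3% of the exon bases of Tardbp. Rbm10 had 16.4 RPKM in A and 21.1 RPKM in B. Rbm4 had 107 counts in A and 197 in B, 1.29 and 2.19 RPKM, and is uncertain: 60.5% of its exon bases lie within Gm21992 on the same strand, and it shares a stretch with Rbm4b. Among the proteins that recognise the 3′ splice site, U2af2, which binds the polypyrimidine tract, had 135 RPKM in A and 147 RPKM in B. Its partner U2af1, which reads the AG at the intron end, had 65.5 RPKM in A and 73.2 RPKM in B. U2af2 thus stood 2.06-fold above U2af1 in A and 2.01-fold in B by counts at the genes themselves. With pseudogene counts added to both genes the order turned, with U2af2 over U2af1 at 0.767 in A and 0.842 in B, so which is higher cannot be told from these counts. Sf1, the branch point binding protein, had 95.015 RPKM in A and 89.7 RPKM in B, and Sf3b1, which takes its place in the U2 particle, had 60.1 RPKM in A and 98.0 RPKM in B.

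Genes around these families were looked at through 5 further lists. The 35 core spliceosome genes were all at 1 CPM or above in A and B and had a median of 66.7 RPKM, close to the 69.4 RPKM of the regulators. Its highest members were the Sm protein genes Snrpe (203 RPKM in A, 145 RPKM in B), Snrpd1 (164 and 151 RPKM) and Snrpb (189 and 107 RPKM). Of the kinases and the importin that phosphorylate and carry SR proteins, Tnpo3 had 51.0 RPKM in A and 76.9 RPKM in B, Srpk1 38.8 and 42.2 RPKM, and Clk1 17.6 and 21.1 RPKM. Srpk3, known from muscle, had 2 counts in A and 0 in B. Among other hnRNP genes, Pcbp2 had 420 RPKM in A and 341 RPKM in B, and Pcbp1 had 251 RPKM in A and 188 RPKM in B. The other SR-like genes were led by Acin1 (65.8 RPKM in A, 81.0 RPKM in B), Pnn (27.6 and 42.7 RPKM) and Rnps1 (13.6 and 15.8 RPKM), while Srrm3 rested on 23 counts in A and 8 counts in B. The last list, of 21 genes, is named other cell-type-associated regulators, a name not checked for each gene. Of these 21 genes, 14 reached 1 CPM in both libraries and 5 in neither. The list was led by Rbm38 (38.7 RPKM in A, 20.5 RPKM in B), Elavl1 (28.9 and 30.1 RPKM) and Tial1 (24.5 and 24.01 RPKM). Rbfox1, a relative of Rbfox2 known from neurons and muscle, had 2 counts in A and 3 in B, and Celf3 had 9 and 8.

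The libraries were then compared gene by gene, to show how far each level depends on the replicate. An exact two-sided binomial test on the counts, with library sizes scaled by edgeR's TMM, was run on the 14583 genes with at least 1 CPM in A or B, and genes with a Benjamini-Hochberg adjusted p under 0.05 were called. It compares these libraries, not conditions, and takes no spread beyond counting into account. Of all genes tested 76.5% were called, 38.2% higher in A and 38.3% higher in B. Of the 9537 genes tested with a mean of at least 10 CPM, 3559 were called higher in A and 4410 higher in B. Ratios are on the log2 scale of TMM-scaled CPM + 0.5, A over B, which places the median of all genes tested at 0.01. With library totals alone that median was 0.10, and small differences in CPM or RPKM can carry the other sign for this reason.

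Of the 49 regulators, 42 were called, and 41 of these, 83.7% of the 49, were higher in B. The exception was Srsf9, a short SR gene, with 2782 counts in A and 2168 in B and a log2 ratio of 0.39 (adjusted p = 1.59e-20, exact binomial test). Among the calls in B were 7 SR genes, all 7 SR-related genes, 12 hnRNP genes, 2 PTB genes, 7 of the RBFOX, MBNL, CELF, STAR and NOVA group, all 3 of the RBM and TDP-43 group, and 3 of the splice site group. The call of Srrm4 rested on 51 counts in A and 78 in B (adjusted p = 0.0386, exact binomial test). It was lost with library totals, without the CPM filter and after the GC and length correction described below. Hnrnpa2b1, Hnrnpl and Srsf3, called higher in B, had the higher CPM in A, and their ratios were above 0 with library totals, under which 5 regulators (against 44% of all genes tested) were called higher in A. The 7 regulators not called were Srsf4, Srsf5, Hnrnpa3, Ptbp2, Celf2, Nova1 and Sf1, with adjusted p between 0.0774 and 0.80 by the exact binomial test. The median log2 ratio of the 49 was -0.37, with a range of -1.31 to 0.39. Their SD was 0.33, against 0.70 over all genes tested and 0.61 over the 9537 with a mean of at least 10 CPM. After the GC and length correction described below it was 0.41, against 0.47 over the protein-coding genes among those 9537. Marker genes also differed between the libraries: all 3 endoderm markers tested were called higher in B, while 3 of 4 fibroblast and 2 of 3 neural markers were called higher in A. Of the 5 ES cell markers, 3 were called higher in A and 2 higher in B. Of all genes tested, 38.2% were called higher in A and 38.3% higher in B. The part of the marker differences in the regulators' ratios was not tested.

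A ratio of at least 1.5 was reached by 14 regulators, 28.6% of them, all higher in B. Of all genes tested 37.9% reached it, 19.4% higher in A and 18.5% higher in B. Of the 9537 genes tested with a mean of at least 10 CPM, 1256 reached it higher in A and 1820 higher in B. The widest ratios among the regulators were those of Son at 178 CPM in A and 415 CPM in B (log2 ratio -1.31), Mbnl1 at 7.50 and 15.8 CPM (-1.11) and Mbnl3 at 1.51 and 3.33 CPM (-1.01). Qk followed at 140.4 CPM in A and 247 CPM in B (-0.90), and Srrm2 at 510 CPM in A and 863 CPM in B (-0.85). All 5 passed the exact binomial test, with Mbnl3 at an adjusted p of 3.12e-06. The other 9 were Sf3b1, Rbm4, Srsf1, Ptbp3, Srsf11, Mbnl2, Srsf10, Rbm25 and Celf1, with log2 ratios between -0.80 and -0.63. By counts at the genes themselves, none of the 13 hnRNP genes reached 1.5-fold. This is uncertain for Hnrnpa1, which with pseudogene counts added stood at 539 CPM in A and 804 CPM in B, a difference not tested. Of the ratios at the genes themselves, that of Hnrnph1 came nearest at 421 CPM in A and 589 CPM in B (-0.57).

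**Figure D4:**
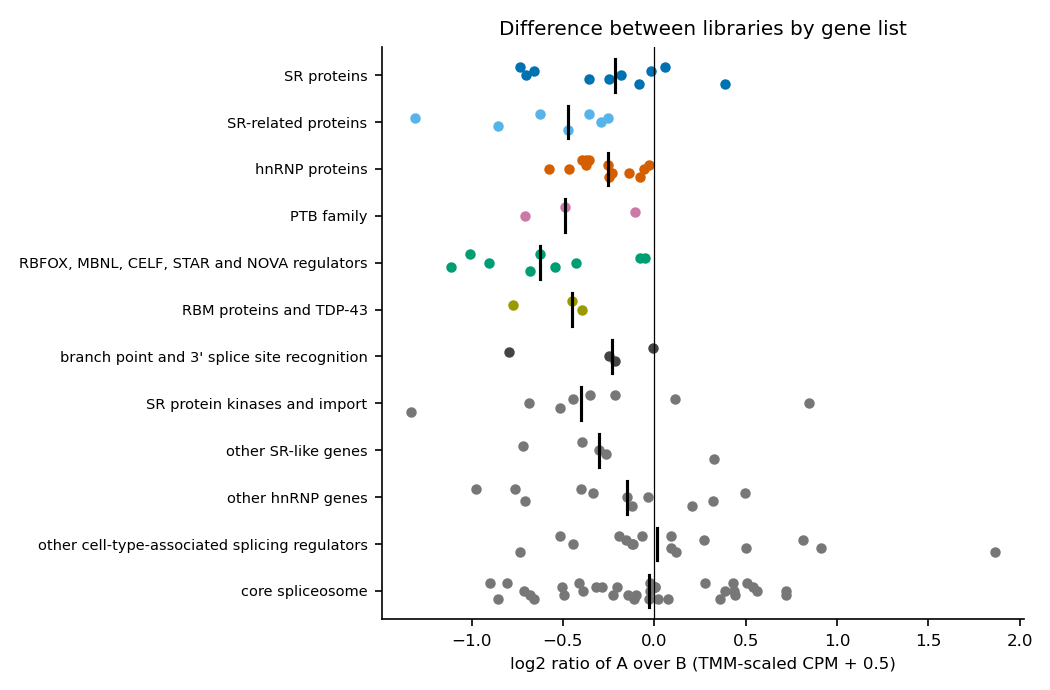
Log2 ratio of A over B for each tested gene of the 7 regulator families (coloured) and 5 further lists (grey), with a vertical bar at the median of each list. Points left of 0 are higher in B. Without the GC and length correction, which these ratios do not include, the family medians lie between -0.63 and -0.22, and the core spliceosome median at -0.03.

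The other splicing lists are given for comparison, without a test of the difference between lists. Of all genes tested, 38.2% were called higher in A and 38.3% higher in B. Of the 35 core spliceosome genes 12 were called higher in A and 17 higher in B, with a median log2 ratio of -0.03. After the GC and length correction described below, the core spliceosome median was -0.15, with 22 of the 35 genes below 0. The 49 regulators then had a median of -0.11, with 29 below 0. The calls and medians in the rest of this paragraph are without that correction. The kinase and import list had 2 of 8 tested genes higher in A and 6 higher in B, with a median of -0.40. Prpf4b, the kinase that acts on spliceosome proteins, stood furthest from 0 in that list at 52.9 CPM in A and 125 CPM in B (log2 ratio -1.33), a gene named here after its values were seen. The other SR-like genes had 0 of 5 tested genes higher in A and 4 higher in B, and the other hnRNP genes had 3 of 11 higher in A and 6 higher in B. The cell-type-associated list had 6 of 16 tested genes higher in A and 5 higher in B, with a median of 0.01.

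The ratio moved with transcript length and base composition over the whole transcriptome. Over 12852 protein-coding genes, the rank correlation of the log2 ratio was -0.42 with the length of the longest transcript and 0.51 with GC content. The regulators were long and GC-poor, with medians of 4047 bases and 43.6% GC, against 3385 bases and 50.2% GC over protein-coding genes tested. Over the 49 genes, the correlations were -0.45 with length and 0.15 with GC content. These are descriptions across genes that share 2 libraries. In every length class a larger share of regulators than of protein-coding genes had a ratio below 0. Under 3 kb it was 10 of 11 regulators (90.9%, against 30.3% of protein-coding genes), from 3 to 5 kb 19 of 20 (95%, against 54.99%), and from 5 kb upward 18 of 18 (100%, against 72.9%).

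When the log2 ratios were corrected for GC content and length with a trend fitted over protein-coding genes, the median of the 49 was -0.11 and 29 lay below 0, against 47 before the correction. The sign of the ratio turned for 20 genes. Under it 16 of the 49 were called higher in A and 28 higher in B, against 34.7% and 35.7% of all genes tested. At least 1.5-fold apart were 7, against 26.8% of all genes tested. After the correction the rank correlations over the 49 genes were 0.27 with length and -0.65 with GC content, against -0.45 and 0.15 before it. Among these genes both signs thus turned with the correction, and the GC trend became stronger. The 41 calls in B are therefore given with this limit. Son stayed low in A after the correction, at -0.82, while Mbnl1 stood at -0.45, Mbnl3 at -0.43, Srrm2 at -0.55 and Qk at -0.11. For 14 of the 49 genes near-identical pseudogenes and for 8 an exon overlap of at least 10% add to the uncertainty. Without the GC and length correction, 1 of the 28 genes with neither such copies nor such overlap was higher in A and 23 were higher in B. Their uncorrected median log2 ratio was -0.47, and this subset was chosen after the data were seen. Corrected ratios were not summarised for it.

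**Figure D5:**
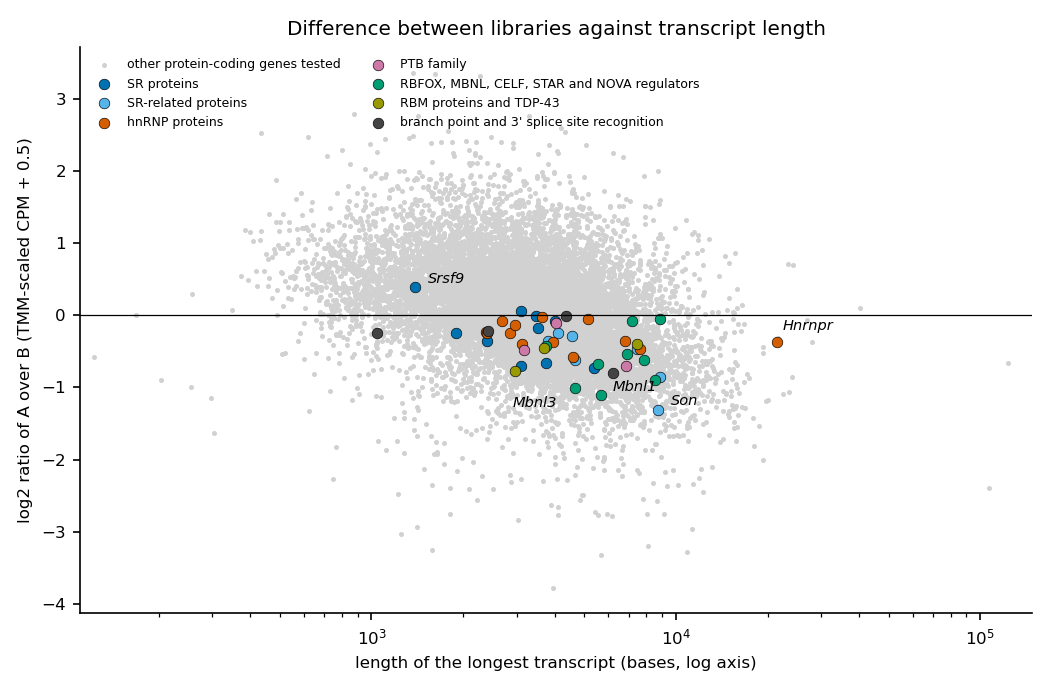
Log2 ratio of A over B against the length of the longest transcript (log axis), for the 49 regulators coloured by family and for the other protein-coding genes tested (grey). Ratios are lower at greater lengths in both sets. Son has the lowest ratio of the 49 (-1.31) and Srsf9 the highest (0.39).

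Transcript annotation was a further feature that the choice of genes did not use. An NMD transcript was annotated for 34 of the 49 regulators (69.4%), against 3466 of the 11981 protein-coding genes that reached 1 CPM in A and B (28.9%). A retained-intron transcript was annotated for 41 (83.7%), against 59.8%. The regulators also had more annotated transcripts, with a median of 10 against 5. Among genes with 10 or more transcripts the gap in NMD transcripts was smaller, at 18 of 27 regulators (66.7%) against 1178 of 2028 genes (58.1%). For retained introns it turned round, at 85.2% of these regulators against 89.8% of these genes. By family, all PTB genes and all genes of the splice site group had an NMD transcript, against 7 of 13 hnRNP genes and 3 of 9 of the RBFOX, MBNL, CELF, STAR and NOVA group. These shares describe the annotation, not the RNA of these cells.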

How the data were processed

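Polyadenylated RNA was extracted with Trizol and made into reverse-stranded TruSeq RNA libraries run on an Illumina HiSeq2000, per the labels' protocols. The authors deposited raw counts, whole numbers for each Ensembl gene, without normalization. Per the submitters' processing notes the tools were STAR 2.4.2a and featureCounts 1.4.5-p1 with the mm10 build. The annotation release, strand setting and handling of reads with several matches were not given in the sources used here.

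Gene names, lengths, GC content, positions and exons came from GENCODE M21 (GRCm38, which is mm10), in which 42548 of 43629 rows were found, with 99.8% of each library's counts. CPM and RPKM were computed here from the deposited counts. Library sizes were scaled by TMM, with factors of 1.03 (A) and 0.968 (B; edgeR 4.0.16, R 4.3.3), and the exact binomial test used scipy 1.17.1. The test and the GC and length correction, a polynomial of degree 3 that left genes other than protein-coding ones as they were, were tested on simulated data. Pseudogene matches came from blastn 2.17.0 at 95% identity or more over at least 200 bases. Intervals are exact limits on the counts of a single library and reflect counting error alone. The reads carry no molecular identifiers.

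The 49 genes and the further lists were chosen with earlier results of these data known. Values are given for the 3 highest and 2 lowest genes of each family by mean RPKM, for related genes, and for the 5 largest ratios among genes called and at least 1.5-fold apart. In other lists, the 3 highest genes and up to 2 under 1 CPM in both libraries are named, of which 1 is not reported here. Any other gene named was chosen after its values were seen. The alternatives tried were size factors of DESeq2 1.42.0, unscaled totals, other filters, pseudocounts of 0.1 and 1, the GC and length correction, other transcript lengths, single libraries, and addition of pseudogene counts. Protein sequences were not used here.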

Additional observations from a re-analysis of the deposited data

How the results depend on the processing

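With 2 libraries the comparison of A and B has no replicate check, and depth limits mainly Srrm4, Mbnl3, Celf2 and Rbm4. No paired analysis was possible because the series holds 1 group. Counts of calls and the median ratio stayed within 1.5-fold or 0.1 (log2) of the reported values under DESeq2 size factors, both filters and both pseudocounts. Library totals gave 5 regulators higher in A (44% of all genes tested). The GC and length correction gave 16 higher in A (34.7% of all genes), 7 at least 1.5-fold apart (26.8%) and a median of -0.11. The cause was not tested. Ratios of single genes turned positive with library totals for Celf2 (0.032), Hnrnpa2b1 (0.065), Hnrnpa3 (0.037), Hnrnpl (0.017), Nova1 (0.0089), Sf1 (0.084), Srsf3 (0.011) and Srsf5 (0.075). After the GC and length correction they turned positive for Celf2 (0.72), Hnrnpa2b1 (0.30), Hnrnpa3 (0.56), Hnrnpc (0.024), Hnrnpd (0.32), Hnrnph1 (0.086), Hnrnpk (0.15), Hnrnpr (0.85), Hnrnpu (0.29), Nova1 (0.73), Ptbp2 (0.58), Ptbp3 (0.068), Rbm25 (0.033), Srrm1 (0.044), Srsf3 (0.40), Srsf5 (0.44), Srsf6 (0.17), Tardbp (0.31) and Tra2b (0.28), and negative for Srsf4 (-0.12). Without 1 library the median level was 57.5 to 69.2 RPKM. With the union of exons as length, family medians were 62.1 RPKM for SR, 22.1 for SR-related, 3.69 for the RBFOX, MBNL, CELF, STAR and NOVA group and 53.9 for the splice site group. Coding transcripts gave 118 RPKM for SR, 77.4 for SR-related and 148 for hnRNP. Union lengths gave ratios of 29.5 for Ptbp1 over Ptbp2, 10.9 for Ptbp1 over Ptbp3, 2.76 for Ptbp3 over Ptbp2, 6.30 for Mbnl2 over Mbnl1, 2.27 for Mbnl1 over Mbnl3, 187 for Celf1 over Celf2, 1.32 for Tra2a over Tra2b and 2.97 for U2af2 over U2af1. Coding lengths gave 1.88 for Tra2a over Tra2b and 2.25 for U2af2 over U2af1, and pseudogene counts added to both, an alternative chosen after seeing the data, gave 0.804. The median level of genes with pseudogenes was 337 CPM with these added.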
